A study of Mus musculus with 13 samples.

Results

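The cytosolic ribosomal protein genes encode the protein parts of the ribosome that works outside mitochondria. They were taken from the deposited count table by symbol: Rpl or Rps followed by digits and optionally a, x or l, together with Rplp0, Rplp1, Rplp2 and Rpsa, leaving out symbols marked as pseudogenes and the Rps6k kinases. This gave 81 of 24421 gene symbols, of which 49 belong to the large (60S) and 32 to the small (40S) subunit. After the filter on low counts 76 of the 81 were tested, among 13915 genes in all. RNA had been sequenced in bulk from liver endothelial cells (LECs), the cells that line the liver's sinusoids and vessels. The animals were wild-type mice raised either conventionally, and so carrying microbes (CONV-R, n = 7), or germ-free, without live microbes (GF, n = 6). Strain, sex, age, the isolation of the cells and the number of animals behind a library were not given in the sources used here for either group. The p-values therefore measure the spread between these libraries, which may be technical.

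A ribosome joins a small subunit, which reads the messenger RNA, to a large subunit, which forms the peptide bonds. Each subunit is built in the nucleolus from ribosomal RNA and ribosomal proteins, with the help of many assembly factors, and the proteins are needed in nearly equal numbers. The messenger RNAs of ribosomal proteins are known for a terminal oligopyrimidine (TOP) tract: they begin with a C followed by an unbroken run of C and T. Through this tract the kinase complex mTORC1 and the binding protein Larp1 set how much these messages are translated, which a count of RNA does not measure.

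The start sites of some members show this tract. RefSeq's promoter table (build GRCm38.p6, 250 bases before to 50 after each start, here read along the transcript's strand) held 60 of the 81 members. In 13 of them, or 21.7%, the annotated start base was C and was followed by at least 4 pyrimidines, against 3.01% of all 27025 genes in that table, 2.95% of the tested genes it held and 0 of 68 mitochondrial ribosomal protein genes. The sequences below run from 40 bases before the start to the first 10 bases of the transcript, 5′ to 3′. Capitals mark the C at the start and the pyrimidines that follow it. The first 5 carry the tract and include Rps6, Rps15a and Rplp2, which are described further on. Rpl41, the member with the lowest log2 fold change, has no such tract at its annotated start and is shown for contrast in sequence only. The genes printed were picked by hand and do not show how the tract goes with the log2 fold change.
Rps6: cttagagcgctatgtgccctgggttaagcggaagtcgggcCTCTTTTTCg
Rps15a: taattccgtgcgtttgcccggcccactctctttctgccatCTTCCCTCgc
Rps18: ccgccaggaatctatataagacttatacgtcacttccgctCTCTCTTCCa
Rplp2: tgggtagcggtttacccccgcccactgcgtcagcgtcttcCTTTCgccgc
Rpl38: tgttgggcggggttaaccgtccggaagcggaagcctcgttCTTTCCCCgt
Rpl41: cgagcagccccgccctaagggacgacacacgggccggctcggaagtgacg

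The windows lie at chr4:86857358-86857407 for Rps6, chr7:118116138-118116187 for Rps15a, chr17:33955656-33955705 for Rps18 and chr10:128549159-128549208 for Rpl41, all on the minus strand. Those of Rplp2, at chr7:141447611-141447660, and Rpl38, at chr11:114668540-114668589, are on the plus strand. The run of pyrimidines from the start base was 9 bases long in Rps6 and Rps18, 8 in Rps15a and Rpl38 and 5 in Rplp2. A start annotated a few bases off hides the tract. Counting any pyrimidine run of at least 8 bases that touches the 10 bases on either side of the start, 28 of the 60 members had one (46.7%), against 15.8% of all genes in the table. The motif CTTCCGG, looked for on both strands of the whole window, was present in 25 members (41.7%), 18.8% of tested genes and 36.8% of mitochondrial ribosomal protein genes. TATAAA, on both strands, was found in 6 members (10.0%) and 9.46% of tested genes. These matches describe the letters in the window and nothing about binding.

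Some features of the libraries bear on the values that follow. The table totals were 7590320 to 32869515 counts in CONV-R and 23407168 to 35478115 in GF. All 15 markers of liver endothelial cells had counts in these libraries, with sums, as CPM of the library total, of 25991 to 44404 in CONV-R and 44620 to 46784 in GF. The 17 hepatocyte markers, all with counts, summed to 1592 to 10836 CPM in CONV-R against 896 to 1440.1 in GF, with CONV-R 1, 7 and 5 highest. The 10 B-cell and plasma-cell markers in the table, all with counts, stood at 1986 CPM in CONV-R 1, at 74.9 to 99.1 in the other CONV-R libraries and at 29.1 to 51.5 in GF. The 12 neutrophil and monocyte markers in the table summed to 242 to 2446 CPM in CONV-R, highest in CONV-R 7, beside 99.5 to 225 in GF, and 10 of the 12 tested were called lower in GF. The 13 Kupffer cell markers summed to 2658 to 8328 CPM in CONV-R beside 2490.1 to 4132 in GF. Of these 0 were called, though all 13 had a log2 fold change below 0. Among the endothelial markers 8 of 15 were called higher in GF and 0 lower. Of the tested markers, 15 of 16 for hepatocytes and 9 of 10 for B cells and plasma cells were called lower. Of 7 cholangiocyte markers 4 were called higher and 1 lower in GF. Their part in the results that follow was not tested. The library names hold a number of unstated meaning, 10 in CONV-R 1 to 4, 9 in CONV-R 5 to 7 and 6 throughout GF, which cannot be told apart from the group.

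No cytosolic ribosomal protein gene passed the test between GF and CONV-R. Of the 76 tested members 0 were called higher and 0 lower at an adjusted p under 0.05 (edgeR's quasi-likelihood test with Benjamini-Hochberg adjustment over all genes), while 24.1% of all genes tested were called, 11.4% higher and 12.7% lower in GF. DESeq2 also called 0 members. Other settings called some higher: 3 with limma-voom, 4 with trends of length and GC content removed and 7 without CONV-R 1, 5 and 7 together, the 3 libraries highest in hepatocyte markers. Over all genes, these settings called 1913 of 13915, 1777 of 13915 and 1263 of 14194 higher, in the same order. In the reported fit the count at an unadjusted p under 0.05 was 1 of 76, against 38.9% of all genes. The groups did not overlap for 0 members, against 10.3% of all genes. CONV-R 1 was the highest library for 71 of the 76 and CONV-R 7 the lowest for 60. A few libraries thus set most of these overlaps, which are not 76 separate outcomes. The log2 fold changes of the members (GF over CONV-R) had a median of −0.03 and quartiles of −0.10 and 0.05, beside a median of −0.01 and quartiles of −0.25 and 0.17 for all genes. They ran from −0.31 to 0.33, with 28 above and 48 below 0. The number above 0 was 58 without CONV-R 1, 16 without CONV-R 7, 54 with limma-voom and 74 with either the hepatocyte or the B-cell marker sum as a covariate.

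The intervals say how large a difference could still be present under the reported fit, which held no covariate for the mixture of cells. The 95% interval of the log2 fold change lay within ±0.5 for 59 of the 76 members, within a 1.5-fold change in either direction for 67 and within a 2-fold change for all 76. The lowest bound of any member was −0.76 and the highest 0.61. These bounds do not cover the other settings. With the hepatocyte marker sum as a covariate the log2 fold changes themselves ran from −0.06 to 0.70, with a median of 0.30. Both subunits gave similar values: the median log2 fold change was −0.01 over the 44 tested 60S members and −0.06 over the 32 tested 40S members. As a comparison at like depth, 2030 other genes lay in the same range of abundance as the members above 100 CPM. Of those, 476 were called higher and 109 lower, with a median log2 fold change of 0.10. Their median SE was 0.09 against 0.15 for the members, so a difference of a given size was harder to call in a member. The members also varied together between libraries, so their 76 results are not independent.

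**Figure D1:**
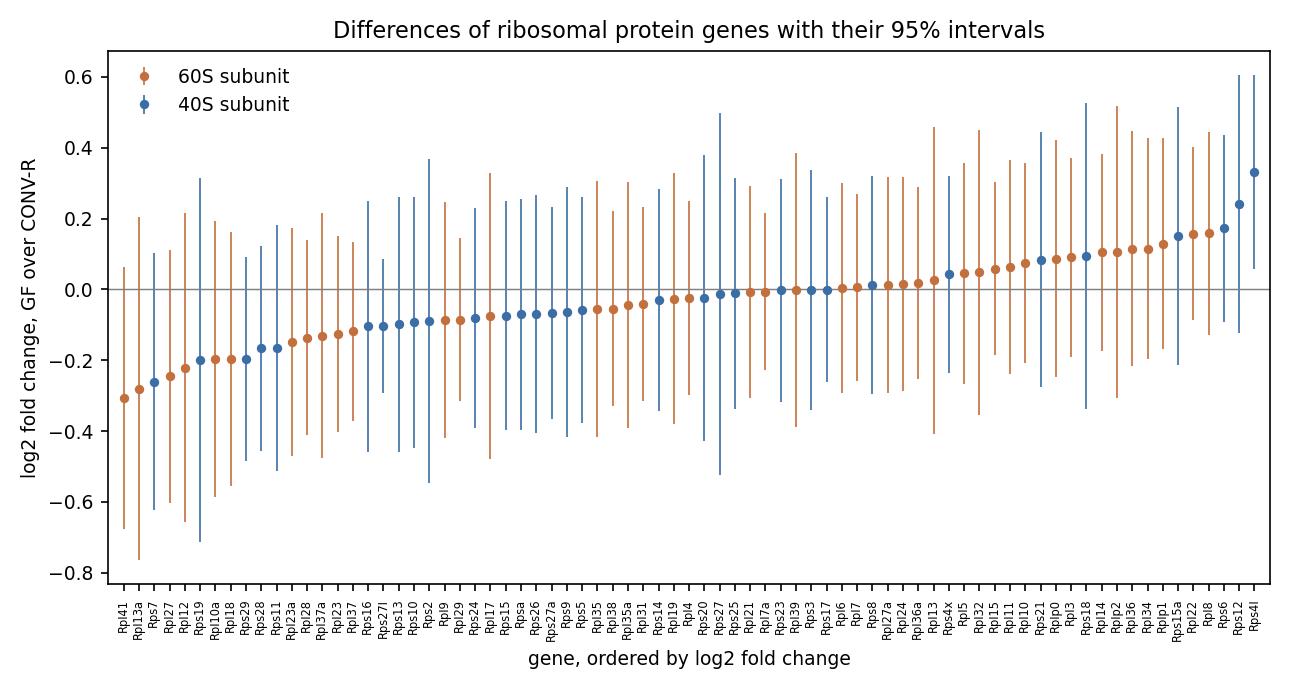
Log2 fold change (GF over CONV-R) of 75 of the 76 tested ribosomal protein genes, ordered by value, with its 95% interval as a vertical line; orange marks 60S and blue 40S genes. The points run from −0.31 (Rpl41) to 0.33 (Rps4l), and Rps4l has the one interval that does not reach 0.

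Within CONV-R the members varied more than the groups differed. Their summed counts made up 2.22% ± 0.64 of the library in CONV-R (mean ± SD, n = 7; lowest 1.57%, median 2.07%, highest 3.47%) and 2.04% ± 0.083 in GF (n = 6; lowest 1.94%, median 2.01%, highest 2.15%). All 6 GF values lay inside the CONV-R range. CONV-R 1 held the highest share, 3.47%, followed by CONV-R 5 with 2.60%, and CONV-R 7 held the lowest, 1.57%, followed by CONV-R 4 with 1.74%. Without CONV-R 1 the CONV-R mean was 2.01% ± 0.35, so that the difference in share, GF minus CONV-R, went from −0.18 to 0.027 percentage points. The subunits kept step: the ratio of 60S to 40S counts was 1.28 to 1.33 in CONV-R and 1.31 to 1.34 in GF.

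Single members followed the same order of libraries. CONV-R 1 had the highest level of all 13 libraries for 71 of the 76 members, and CONV-R 7 had the lowest for 60 and CONV-R 4 for 15. The typical member stood 1.62-fold above the mean of the other CONV-R libraries in CONV-R 1 (75 of 76 members above) and 1.21-fold above in CONV-R 5 (75 above). It stood at 0.771 of that mean in CONV-R 4 and at 0.666 in CONV-R 7, where 0 members were above. In the same CONV-R 1 library the median of the other genes of like abundance was 0.871 of their mean. Among GF libraries the corresponding values for members were 0.928 to 1.07. CONV-R 1, the library with the high B-cell markers, also had the lowest endothelial markers and the highest hepatocyte markers. CONV-R 7, with the lowest ribosomal protein share, had the next highest hepatocyte markers, 9022 CPM. The part of these other cells in the members' levels was not tested, and in bulk RNA fewer cells of a type and less RNA per cell cannot be told apart.

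**Figure D2:**
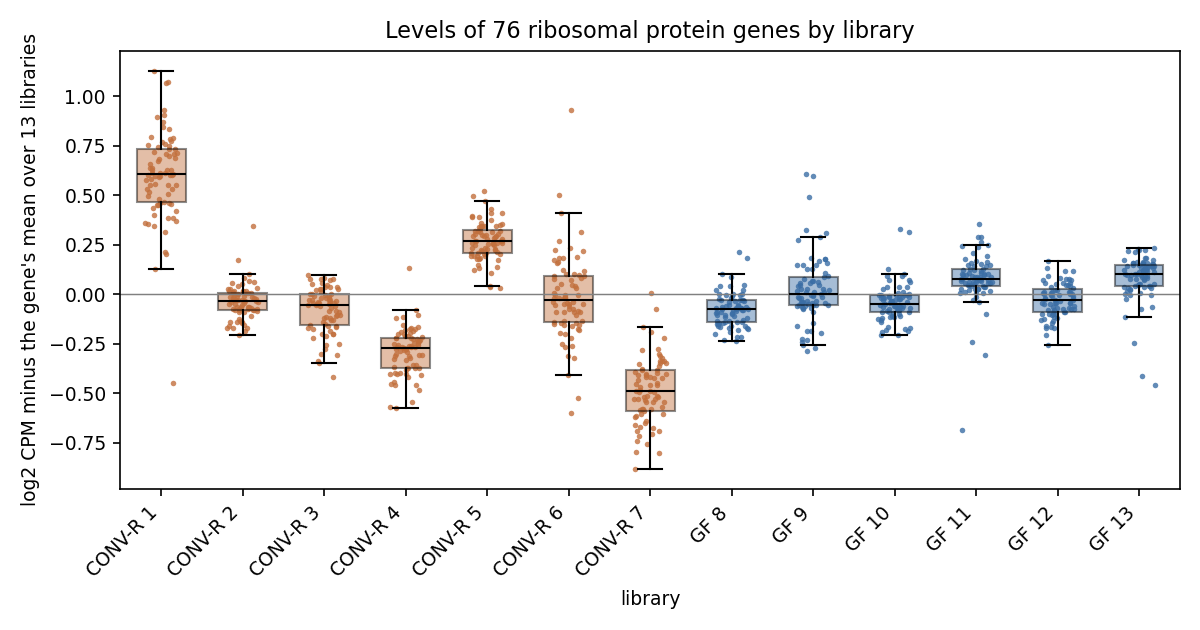
Level of the 76 tested ribosomal protein genes in each library, as log2 CPM minus the gene's own mean over 13 libraries; points are genes, boxes show the quartiles and median, whiskers reach at most 1.5 box lengths. The boxes of CONV-R 1 and 5 lie above 0 and those of CONV-R 4 and 7 below it, while the 6 GF boxes stay close to 0.

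The spread differed between the groups accordingly. The median coefficient of variation of the members was 27.8% in CONV-R, or 19.1% without CONV-R 1, and 6.78% in GF, and it was larger in CONV-R for 75 of 76 members. For the other genes of like abundance it was 13.9% in CONV-R and 6.19% in GF, larger in CONV-R for 1901 of 2030. The steadiest member among GF libraries was Rpl5, a 60S protein that also binds 5S ribosomal RNA, with a coefficient of variation of 1.23% around 384 ± 4.71 CPM (SD, n = 6). In CONV-R Rpl5 ran from 259 to 564 CPM with a median of 354.

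The members moved together from library to library. The median Pearson correlation of log2 CPM over 2850 pairs of members was 0.87 across all 13 libraries, 0.92 within CONV-R, 0.89 within CONV-R without library 1 and 0.63 within GF. For pairs of other genes above 100 CPM it was 0.18, 0.17 and 0.08 in all, CONV-R and GF libraries. These are descriptions over few libraries, and all points share the same library, its depth and its mixture of cells. The genes outside the list that tracked the members' mean most closely, after removing group means, were Gnb2l1 (r = 0.98 over 13 libraries), Rps3a1 (0.97), Fau (0.97), Eef1b2 (0.97) and Snrpg (0.97).

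A few members followed the others less closely. After removing group means, the lowest correlations with the mean of the other members were those of Rps4l (0.05), Rps27 (0.26), Rpl34 (0.40), Rps2 (0.55) and Rpl13 (0.68). Rps2, a 40S protein near the channel through which messenger RNA enters, and Rpl13, a 60S protein, had an r of 0.94 with each other. That value is over 13 libraries with group means left in, where the median pair of members had 0.87. In GF, Rps2 had a lowest value of 215, a median of 268 and a highest of 448 CPM, and Rpl13 206, 271 and 414. Both were highest in GF 9 and lowest in GF 13. Their coefficients of variation in GF, 29.0% and 25.9%, stood against the median of 6.78% for all members.

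The 3 highest log2 fold changes of all members belonged to the 40S genes Rps4l, Rps12 and Rps6. Rps4l, annotated by RefSeq as a transcribed pseudogene (chr6:148354656-148355596), ran from 18.7 to 32.5 CPM in CONV-R with a median of 22.3 against 26.0 to 31.9 in GF with a median of 30.2. The ranges overlapped, and the log2 fold change was 0.33 ± 0.13 (SE; 95% interval 0.06 to 0.61; adjusted p = 0.0733 in edgeR). Its parent Rps4x, with 351 to 671 CPM in CONV-R against 458 to 496 in GF, had a log2 fold change of 0.04 ± 0.13. Without CONV-R 2 the log2 fold change of Rps4l was 0.42 with an adjusted p of 0.0149 in edgeR. How reads that map to both genes were counted was not given, so the 2 symbols can share reads. Rps12 gave 209 to 533 CPM in CONV-R (median 358) against 400.3 to 466 in GF (median 429). Its log2 fold change was 0.24 ± 0.17, and all GF libraries lay inside the CONV-R range.

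Rps6, the 40S protein phosphorylated by the S6 kinases downstream of mTORC1, stood at 267 CPM at its lowest, 353 at the median and 499 at its highest in CONV-R. In GF the values were 373, 416 and 428. The log2 fold change was 0.17 ± 0.12 (95% interval −0.09 to 0.44). Rps15a, another 40S protein with the tract printed above, had 192, 270.0 and 503 CPM in CONV-R and 305, 327 and 358 in GF. Its log2 fold change was 0.15 ± 0.17 (adjusted p = 0.544 in edgeR), which without CONV-R 1 became 0.32 with an adjusted p of 0.0288. At the lower end of the 40S members, Rps7 had a log2 fold change of −0.26 ± 0.17, Rps19, whose human counterpart is mutated in Diamond-Blackfan anaemia, −0.20 ± 0.24 and Rps29 −0.20 ± 0.13. Rps7 ran from 197 to 489.6 CPM in CONV-R against 226 to 253 in GF, so the GF libraries again lay within the CONV-R range.

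Rpsa, a 40S protein also known as a laminin receptor, and Rps27a, made as a fusion with ubiquitin, had log2 fold changes of −0.07 ± 0.15 and −0.07 ± 0.14. Rpsa had 367, 450.4 and 785 CPM (lowest, median and highest) in CONV-R and 439, 448 and 505 in GF. Rps27a had 228, 310.0 and 471 CPM in CONV-R and 284, 293 and 329 in GF. For both, the highest CONV-R value was well above every GF library.

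Among the 60S members the lowest value belonged to Rpl41, which encodes the shortest ribosomal protein. It ran from 84.8 to 176 CPM in CONV-R (median 107.5) against 91.8 to 114 in GF (median 95.7), overlapping, with a log2 fold change of −0.31 ± 0.17 (95% interval −0.68 to 0.06; adjusted p = 0.202 in edgeR). Rpl13a, known for silencing inflammatory messages when it leaves the ribosome, had 233, 282 and 694 CPM in CONV-R and 275, 282 and 354 in GF. The medians were nearly equal, and its log2 fold change of −0.28 ± 0.23 came with the highest CONV-R value in library 1. Rpl27, Rpl12, Rpl10a and Rpl18, all structural 60S proteins, had log2 fold changes of −0.25, −0.22, −0.20 and −0.20.

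At the upper end of the 60S members were Rpl22 and Rpl8, a protein close to the peptidyl transferase centre. Rpl22 had 98.5, 156 and 183 CPM in CONV-R and 155, 173 and 176 in GF, with a log2 fold change of 0.16 ± 0.11 (95% interval −0.09 to 0.40). Rpl8 had 281, 431 and 585 CPM in CONV-R and 442, 468 and 542 in GF, with a log2 fold change of 0.16 ± 0.13. Rpl34 and Rpl36 had log2 fold changes of 0.12 ± 0.15 and 0.11 ± 0.15. Rpl11, which with Rpl5 binds the p53 regulator Mdm2 when ribosome assembly is disturbed, stood at 0.06 ± 0.14 and Rpl5 at 0.05 ± 0.15.

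The stalk of the large subunit, which recruits the elongation factors, is built from Rplp0, Rplp1 and Rplp2. Rplp0 had 333, 437 and 732 CPM in CONV-R against 479 to 555 in GF. Rplp1 had 298, 473 and 640.4 CPM in CONV-R against 468 to 598 in GF, and Rplp2 152, 261 and 431 in CONV-R and 255 to 325 in GF. The log2 fold changes were 0.09 ± 0.16, 0.13 ± 0.14 and 0.11 ± 0.19, and in each case the GF libraries lay inside the CONV-R range.

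The members' levels per length of transcript were high and close together. The median of tested members was 348 CPM per kb, against 10.2 for all genes tested, and 62 of the 76 lay within a factor of 2 of that median. The highest levels per kb were those of Rps29 (1157), Rps24 (1044), Rplp1 (996), Rpl10 (802), Rps12 (800.2) and Rps15 (731). Rps20 stood at 50.8 CPM per kb, where the annotated model used is 3706 bases long, far beyond the members' median length of 681. Its level itself was 110 to 327 CPM in CONV-R against 175 to 206 in GF.

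**Figure D3:**
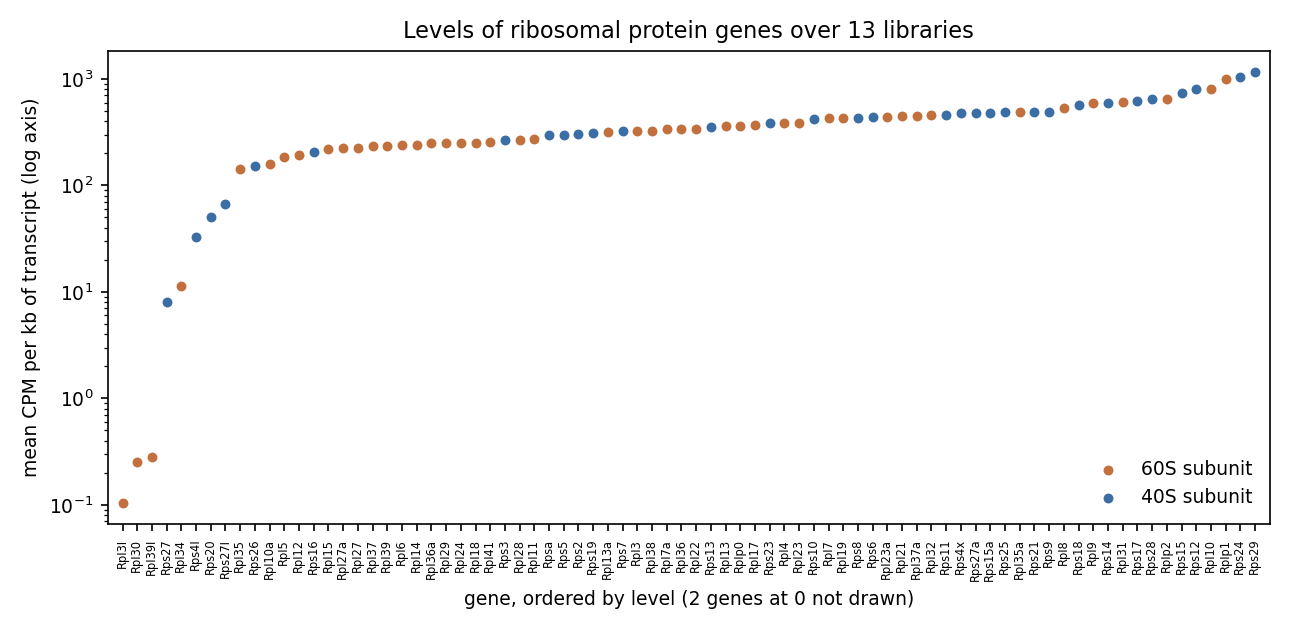
Mean level over 13 libraries of 78 ribosomal protein genes in CPM per kb of transcript (log axis), ordered by level; orange marks 60S and blue 40S genes. Most genes lie within a narrow band around the median of tested members, 348 CPM per kb, and a few, among them Rpl3l, Rpl30, Rpl39l, Rps27 and Rpl34, lie far below it.

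Some standard members were nearly absent from the table. Rpl26 was listed at 0 in all 13 libraries, and Rpl30 had 45 counts in all of them together. Rps27 and Rpl34 had a mean of 2.77 and 5.44 CPM over 13 libraries, while 72 of the 76 tested members were above 100 CPM. All are standard parts of the ribosome, and ribosomal protein genes have many processed pseudogenes in mouse. The sources used here do not give how reads that map to several places were counted, so these levels are uncertain, and the part of shared reads in them was not tested. For Rps27 the log2 fold change was −0.01 ± 0.24 and for Rpl34 0.12 ± 0.15.

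The members known for expression in few tissues were at or near 0. Rpl10l, a testis form of Rpl10, was listed at 0 in every library. Rpl39l, likewise known from testis, had 46 counts in all, and Rpl3l, the striated-muscle form of Rpl3, had 31. Rpl3l had 1 to 8 counts in each CONV-R library, and was at 0 in 5 of 6 GF libraries and at 5 counts in the sixth. Their widely expressed relatives were at 449 to 868 CPM in CONV-R for Rpl10, 263 to 552 for Rpl3 and 93.4 to 240.3 for Rpl39. The log2 fold changes of these were 0.08 ± 0.13, 0.09 ± 0.13 and 0.00 ± 0.18. Rps27l, a p53-responsive relative of Rps27, had 27.9 to 43.4 CPM in CONV-R against 30.0 to 35.9 in GF, with a log2 fold change of −0.10 ± 0.09.

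Ribosomal proteins whose names the symbol rule does not reach were listed under 8 symbols, of which Gnb2l1 and Rack1 name the same gene. They gave the same picture of counts: 7 genes were in the table and 0 were called, against 24.1% of all genes. Among them were Gnb2l1 (also called Rack1; 0.05 ± 0.15), Rps3a1 (−0.10 ± 0.14), Fau, the precursor of Rps30 (−0.14 ± 0.18), Rpl36al (−0.17 ± 0.13), Rpl22l1 (−0.20 ± 0.10) and Rpl7l1 (−0.01 ± 0.07). Values are log2 fold changes with SE. Rpl22l1, the paralog that is known to be repressed by Rpl22, had the smallest adjusted p of them, 0.175 in edgeR.

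Among the factors that assemble ribosomes, a larger number passed the test, most of them lower in GF. Of 47 tested ribosome biogenesis factors 20 fell and 2 (Gnl3l and Riok3, named after their values were seen) rose. Of all genes tested, 12.7% were called lower and 11.4% higher. The median log2 fold change of the list was −0.22 beside −0.01 for all genes. Ppan, a factor of 60S maturation, had 18.8, 23.2 and 25.6 CPM in CONV-R (lowest, median and highest) and 13.4, 14.9 and 16.1 in GF. It fell by 0.65 on the log2 scale (± 0.08 SE, adjusted p = 1.44e-04, edgeR) with no overlap between groups. Nop58, a core protein of the particles that methylate ribosomal RNA, had 25.4 to 36.0 CPM in CONV-R against 18.1 to 21.4 in GF and fell by 0.59 ± 0.08. Tsr1, which acts on 40S precursors, fell by 0.64 ± 0.10 and Wdr43, of the early 40S processome, by 0.30 ± 0.05, and for both no GF library reached the CONV-R range. The groups did not overlap for 14 of the 47, against 10.3% of all genes.

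Some abundant nucleolar factors did not pass. Fbl, the methyltransferase of the same particles as Nop58, had a log2 fold change of 0.06 ± 0.12, Ncl of 0.00 ± 0.08 and Npm1 of 0.06 ± 0.09. These 3 were named after their values were seen. With the hepatocyte marker sum as a covariate 2 of the 47 were called lower, at a median log2 fold change of the list of −0.22, and with the B-cell marker sum 12, at −0.19. Without CONV-R 1, 5 and 7 together 20 were, and 28 when scaled to library totals. Over all genes, 251 of 13915 were called lower with the hepatocyte covariate and 631 of 13915 with the B-cell covariate. Without CONV-R 1, 5 and 7 together 1332 of 14194 were, and 2768 of 13915 with library totals, beside 1764 of 13915 in the reported fit.

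**Figure D4:**
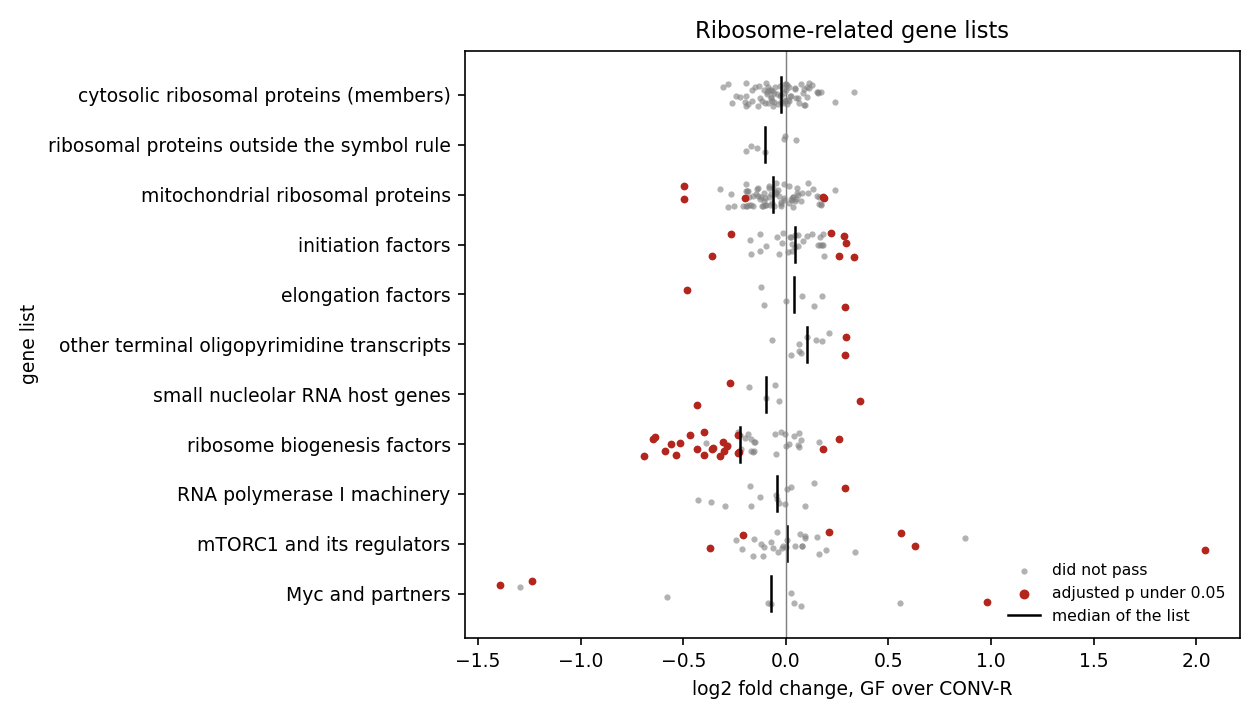
Log2 fold change (GF over CONV-R) of the tested genes of each list, with red points for an adjusted p under 0.05 and a black bar at the list's median. The cytosolic ribosomal proteins hold 0 red points around a median of −0.03, while the ribosome biogenesis factors hold 22 and have a median of −0.22.

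Mitochondrial ribosomal proteins, which serve the separate ribosome inside mitochondria, numbered 77 tested genes, with a median log2 fold change of −0.06. Of these 2 rose and 3 fell, a smaller share than the 24.1% of all genes called. Mrpl33 had 20.8 to 29.4 CPM in CONV-R against 17.4 to 19.0 in GF and fell by 0.50 ± 0.08. Mrps18b fell by 0.50 ± 0.12. Mrpl50 and Mrpl9 rose by 0.18 ± 0.06 each, but the call of Mrpl50 was lost without CONV-R 1 or GF 8, 9, 12 or 13, and that of Mrpl9 without CONV-R 2, CONV-R 6 or any one GF library.

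Of 35 initiation factors, which bring the message to the ribosome, 5 rose and 2 fell, a share near the 24.1% of all genes called, with a median of 0.04. Eif5, which triggers GTP hydrolysis at the start codon, ran from 197 to 245 CPM in CONV-R against 257 to 294 in GF and rose by 0.33 ± 0.06 (adjusted p = 0.00379, edgeR). Eif4b, a helper of the helicase Eif4a, rose by 0.29 ± 0.07 and Eif2b2 by 0.22 ± 0.05, while Eif2b3, another subunit of the same exchange factor as Eif2b2, fell by 0.36 ± 0.08. Scaled to library totals, Eif4b (adjusted p = 0.0605) and Eif2b2 (0.0817) were no longer called in edgeR.

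Among 8 tested genes on the list of elongation factors 1 rose and 1 fell, a share near the 24.1% of all genes called, with a median of 0.04. Eef2, the translocase, had 944 to 1566 CPM in CONV-R against 1477 to 1627 in GF and rose by 0.29 ± 0.10, with an adjusted p of 0.0490 in edgeR that moved above 0.05 without any one of CONV-R 2, 4, 5, 6 and 7 or of the GF libraries. Eef1e1, on this list although it is a scaffold protein of the aminoacyl-tRNA synthetase complex, fell by 0.48 ± 0.15. This call was lost without CONV-R 5 or GF 8, 9 or 12. Of 11 other genes whose messages carry a TOP tract, 2 rose (Eef2 and Eif4b) and 0 fell, beside 24.1% of all genes called, with a median of 0.10.

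Of 7 host genes of small nucleolar RNAs 1 rose and 2 fell, beside 24.1% of all genes called, with a median of −0.10. Gas5 had 100.5 to 136 CPM in CONV-R against 82.4 to 109 in GF and fell by 0.27 ± 0.09, and Snhg3 fell by 0.43 ± 0.13. Snhg6 rose by 0.36 ± 0.11. Without GF 9 the adjusted p of Gas5, Snhg3 and Snhg6 in edgeR were 0.0720, 0.0598 and 0.0767. The call was also lost without CONV-R 6, GF 11 or GF 13 for Gas5, without GF 11 or GF 13 for Snhg3, and without CONV-R 6 or GF 8 for Snhg6. Of 15 genes of RNA polymerase I, which transcribes ribosomal RNA, 1 rose (Polr1c, 0.29 ± 0.08, shared with RNA polymerase III) and 0 fell. The share called was below the 24.1% of all genes, and the median was −0.04. The call of Polr1c was lost without GF 9, 10 or 12.

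Of the 32 tested genes of mTORC1 and its regulators 4 rose and 2 fell, again a share near the 24.1% of all genes, with a median of 0.00. Ddit4, an inhibitor of mTORC1 induced by stress and glucocorticoids, had 17.7, 42.1 and 49.3 CPM in CONV-R and 104, 139 and 217 in GF. It rose by 2.04 ± 0.22 on the log2 scale (adjusted p = 7.76e-05, edgeR), with every GF library above every CONV-R library. Sesn2, another inhibitor of the pathway, rose by 0.63 ± 0.12 and Eif4ebp2, a translation repressor that mTORC1 holds inactive, by 0.56 ± 0.08. Larp1, the TOP-binding protein, ran from 122 to 155 CPM in CONV-R against 109 to 121 in GF and fell by 0.21 ± 0.06. That call was lost without GF 9 or GF 11. The other calls were Rptor, a core subunit of mTORC1, which rose by 0.21 ± 0.06, and Tbc1d7, a subunit of the inhibitory TSC complex, which fell by 0.37 ± 0.12, both named after their values were seen.

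Of 11 genes of Myc and its partners, transcription factors that act on many ribosome genes, 1 rose and 2 fell, also near the 24.1% of all genes. Myc had 6.29, 9.80 and 23.1 CPM in CONV-R and 3.93, 4.87 and 5.37 in GF and fell by 1.39 ± 0.27 on the log2 scale (adjusted p = 0.00396, edgeR), without overlap. With the B-cell marker sum as a covariate its adjusted p was 0.0746 and with the hepatocyte marker sum 0.549. Mycn, at 0.507 to 1.49 CPM in CONV-R against 0.256 to 0.618 in GF, fell by 1.24 ± 0.31. Mxd4, an antagonist of Myc for their shared partner Max, rose by 0.98 ± 0.15, with 75.99 to 143 CPM in CONV-R against 175 to 255 in GF.

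Against these lists the members with the tract at their annotated start base and those without it there were set side by side as a description. A start annotated a few bases off hides the tract, so this split does not sort members by its presence. Rpl7a, for one, had no such run at its annotated start base but a run of 21 pyrimidines near it. The 13 tested members with a start-site C and at least 4 pyrimidines had log2 fold changes of −0.14 to 0.17 with a median of 0.06. The other 43 tested members in the promoter table had −0.31 to 0.24 with a median of −0.06. The 2 ranges overlapped, and no test was made of the difference.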

How the data were processed

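RNA from 13 libraries of liver endothelial cells (7 CONV-R, 6 GF, grouped by the labels) was made into stranded mRNA libraries, per the labels' protocols. The file deposited by the authors gives unnormalized read counts for each gene symbol and library. The submitters' processing notes name build mm10, DESeq2 1.42.1, featureCounts 2.0.1 from Subread, STAR 2.7.5a and FastQC 0.11.9. The annotation, the strand setting and the treatment of multi-mapping reads were not given in the sources used here. Copies and pseudogenes of ribosomal protein genes can therefore take or lose reads.

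The counts were tested with edgeR 4.0.16 (R 4.3.3): filterByExpr (minimum count 10, total 15), TMM scaling and robust quasi-likelihood fits of group over all 13915 genes, with Benjamini-Hochberg adjustment (threshold 0.05). The SE follows from the log2 fold change and the F statistic (its size over √F), and 95% intervals use the test's degrees of freedom. CPM refer to TMM-scaled libraries, and marker sums and shares to library totals. Transcript lengths are those of the shortest principal coding transcript in GENCODE M21 (99.3% of tested genes). Positions and start sites come from RefSeq's GRCm38.p6, the same build as mm10, where all 81 members matched. The fit was tested on simulated data.

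Members and lists were chosen with earlier results of these data known, so no test was made over a list. Named members hold the 10 largest and 10 smallest log2 fold changes, the 6 highest per kb, and paralogs and subunits of special role. Up to 4 called genes per list were named, others are said where they occur, and the 5 genes most like the members' mean were taken. Some of the genes this rule names are not reported here by name and are left out of the plots that name genes; all counts and medians include them.

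Alternatives were DESeq2 1.42.0, limma-voom (limma 3.58.1) with quality weights, DESeq2's size factors, library totals, TMM without the members, no filter or at least 1 CPM in 6 libraries, a threshold of 0.01, each number in the CONV-R library names alone, the hepatocyte or B-cell marker sum as a covariate, removal of trends with length and GC content, and leaving out each library. Leaving out CONV-R 1 and 7, or 1, 5 and 7, together, and all alternatives for the biogenesis list, were chosen after seeing the data.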

Additional observations from a re-analysis of the deposited data

Results flagged for a closer look

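For each named gene and group, a library was singled out when its gap to the nearest other library took up more of the group's whole range than Dixon's 95% value allows. Of 132 such groups examined 12 held one. Chance alone gives about 1 in 20 for a single group, but the members moved together between libraries. The 132 groups are therefore not independent, and the count cannot be judged against that figure. CONV-R 1 was far above the other CONV-R libraries for 5 members: Rps7 with 489.6 CPM, Rpl12 with 489.1, Rpl18 with 300.5, Rps15a with 503 and Rpsa with 785. The nearest CONV-R values were 309, 296, 203, 310.1 and 513 CPM. Rps27, a member at the low end of detection, was high in CONV-R 6 (5.09 CPM) and low in GF 11 (1.66 CPM). Rpl22 was low in GF 8, with 155 CPM against 169 in the next library. Outside the members, Eif2b2 was low in CONV-R 7 (26.8 CPM), Eif4ebp2 was low in CONV-R 5 (59.97 CPM), Snhg3 was high in CONV-R 6 (13.8 CPM) and Snhg6 was high in GF 9 (9.14 CPM).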

How the results depend on the processing

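The count of members called lower in GF was 0 in every setting run. The count called higher, 0 in the reported fit, was 3 with limma-voom (Rps12, Rps15a, Rps6), 2 with code number 9 only (Rps15a, Rps4l), 1 with the B-cell marker covariate (Rps15a), 4 with length and GC trends removed (Rpl22, Rpl8, Rps4l, Rps6), 1 without CONV-R 1 and 7 together (Rps15a) and 7 without CONV-R 1, 5 and 7 together (Rpl14, Rpl32, Rpl36, Rplp0, Rps12, Rps15a, Rps6). Leaving out single libraries gave 0 to 1 (Rps15a without CONV-R 1, Rps4l without CONV-R 2). Over all genes, 1593 of 13915 were called higher in the reported fit and 1913 of 13915 with limma-voom. It was 2281 of 14122 with code number 9 only and 660 of 13915 with the B-cell covariate. With length and GC trends removed it was 1777 of 13915, and without CONV-R 1, 5 and 7 together 1263 of 14194. It was 1438 of 14105 without CONV-R 1 and 7 together, 1410 of 13965 without CONV-R 1 and 1548 of 13813 without CONV-R 2. The members' median log2 fold change, −0.03, was 0.30 with the hepatocyte and 0.27 with the B-cell marker covariate. Elsewhere it ran from −0.13 with library totals to 0.15 with length and GC trends removed, with −0.09 for code number 10 only, 0.03 for code number 9 only, 0.08 without CONV-R 1 and −0.10 without CONV-R 7. Library totals moved the median of all genes to −0.11, and the split of all calls from 1593 higher and 1764 lower to 970 and 2768. The count over all genes, 3357, was 1208 at a threshold of 0.01, 1978 with code number 10 only, 4807 with code number 9 only, 4101 with DESeq2, 532 with the hepatocyte and 1291 with the B-cell covariate, and 2221 (without GF 9) to 3737 (without CONV-R 3) when single libraries were left out. Biogenesis factors called lower, 20, were 13 at 0.01, 2 with the hepatocyte and 12 with the B-cell covariate (list medians −0.22 and −0.19, beside −0.22), and 28 with library totals. Of all 13915 genes, 1764 were called lower in the reported fit and 579 at 0.01. With the hepatocyte covariate 251 were, with the B-cell covariate 631 and with library totals 2768. Of 25 named genes called in the reported fit, 20 lost the call with the hepatocyte covariate, 11 with the B-cell covariate, 7 with library totals and 6 without CONV-R 1, 5 and 7 together. Both marker sums also differ between the groups, and the cause of these changes was not tested. No paired analysis was possible because the groups share no replicate numbers. Without a filter on low counts 79 members were tested and 0 called in either direction, 2 of them at an unadjusted p under 0.05, with a lowest log2 fold change of −2.49.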
